A study of Mus musculus with 6 samples.

Results

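The C-type lectins and scavenger receptors described here are 10 mouse genes, Clec10a, Mrc1, Clec4d, Clec4e, Clec4n, Clec7a, Clec4a2, Clec12a, Msr1 and Cd163, out of 20660 genes that could be named on the array. They were chosen by name, with earlier results of these data known, and their probes were found by RefSeq accession. Of the 10 genes, 9 had at least 1 probe, 10 probes in all, and no probe's accession matched Clec7a in the gene table, so that Clec7a is not analysed here. Msr1 had 2 probes and the other 8 genes had 1 each. The RNA was that of spheres, free-floating clusters of cells, which were derived from the mammary tumors of FRS2beta heterozygous mice (hetero, 3 arrays) or of FRS2beta knockout mice (3 arrays). Both kinds of sphere were cultured in DMEM/F12 medium, to which B27, EGF and bFGF (20 ng/mL each) and heparin (2 mg/mL) were added. FRS2beta, the product of Frs3, links receptor tyrosine kinases to downstream signals as an adaptor, and the design asks how expression in the spheres differs between the genotypes. The strain, the age of the mice, the way the tumors arose and the cells in which FRS2beta was deleted are not given in the sources used here. The labels also do not say whether the 3 replicates of a genotype came from separate animals, so p-values here speak only for the spread among these arrays, which could be technical.

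These receptors sit mainly on macrophages and dendritic cells, where they bind sugars, lipids and altered proteins. C-type lectins recognise carbohydrates through a shared fold and either take up what they bind or signal. The signalling members pair with the adaptor Fcer1g, or carry a motif of their own, and pass the signal through the kinase Syk to Card9, Bcl10 and Malt1. Scavenger receptors take up modified lipoproteins, microbes and debris, and in tumors Mrc1, Clec10a, Msr1 and Cd163 are widely used as surface markers of tissue-resident or alternatively activated macrophages.

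The 6 receptors that could be tested were all lower in knockout spheres, from 10.8-fold for Clec10a and 9.82-fold for Mrc1 to 2.58-fold for Msr1. The first pair of folds depended on the background correction, Clec10a being 2.57-fold and Mrc1 3.76-fold lower with normexp and an offset of 50, and 5.88-fold and 7.39-fold lower with an offset of 1. These were Clec10a, Mrc1, Clec4e, Clec4n, Clec4d and Msr1, or 6 of the 10 listed genes. Across all 15838 genes tested, 32.6% were called lower in knockout spheres and 27.8% higher, at an adjusted p of 0.05. Clec4a2, Clec12a and Cd163 did not pass the filter on dim probes, which asked for a signal well above background on at least 3 of the 6 arrays. A gene seen only in hetero spheres would pass that filter and would then have to differ, so the count of 6 is a description of the genes that passed. Clec10a passed through its hetero arrays, while the other 5 would have passed on their knockout arrays alone. The median log2 fold change of these 6 was -2.34, against -0.03 over all genes tested.

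Promoter sequences were in the RefSeq table (assembly GRCm38.p6) for 7 of the 10 genes, and 3 of those 7, Mrc1, Clec4d and Clec4e, were among the receptors that fell together. Their 250 bases upstream of the transcription start are shown because PU.1, the factor encoded by Spi1, is a general regulator of genes in macrophages. Capitals mark the letters GAGGAA, the core that PU.1 is known to bind, or TTCCTC, the same letters on the opposite strand. Each sequence runs in the direction of its gene. Mrc1 lies on the plus strand (chr2:14229164-14229413), Clec4d on the plus strand (chr6:123261857-123262106) and Clec4e on the minus strand (chr6:123289872-123290121).
Mrc1: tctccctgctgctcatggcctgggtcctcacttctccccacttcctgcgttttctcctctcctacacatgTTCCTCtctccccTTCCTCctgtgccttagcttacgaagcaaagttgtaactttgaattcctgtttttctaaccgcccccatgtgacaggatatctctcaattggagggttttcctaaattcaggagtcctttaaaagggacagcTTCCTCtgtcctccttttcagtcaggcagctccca
Clec4d: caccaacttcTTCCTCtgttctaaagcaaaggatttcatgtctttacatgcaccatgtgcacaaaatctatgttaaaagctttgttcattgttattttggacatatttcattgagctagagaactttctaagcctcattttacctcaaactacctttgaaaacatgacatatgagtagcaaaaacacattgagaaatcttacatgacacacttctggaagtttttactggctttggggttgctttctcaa
Clec4e: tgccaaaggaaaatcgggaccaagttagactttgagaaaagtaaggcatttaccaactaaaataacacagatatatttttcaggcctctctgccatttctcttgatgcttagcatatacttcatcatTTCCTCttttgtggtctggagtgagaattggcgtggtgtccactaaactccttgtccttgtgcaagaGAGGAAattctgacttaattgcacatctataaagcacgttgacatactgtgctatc

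GAGGAA stood 3 times in the Mrc1 window, the nearest beginning 35 bases before the start, 1 time in that of Clec4d and 2 times in that of Clec4e. Over the 7 listed genes with an entry it was found in 5, among them Clec12a and Clec7a. Among 32851 promoters of the same length, 23.3% held it on either strand. The C/EBP core TTGCNNAA was found in 2 of the 7, Clec4e and Clec12a, against 9.56% of all promoters. The AP-1 site TGANTCA was found in Clec12a and the palindromic STAT6 site in Clec7a, against 6.75% and 5.85% of all promoters. A match is a run of letters and does not show binding. Neither Clec12a, with 2 copies of GAGGAA, nor Spi1 itself had a signal that passed the filter, Spi1 being detected on 1 hetero array alone.

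Values below are the log2 processed signal scaled so that 0 is the 75th percentile of the array's probes. Levels of different probes cannot be set against each other, because probes differ in how strongly they bind. Clec10a, the macrophage galactose-type lectin, takes up glycans with terminal galactose or N-acetylgalactosamine. Its scaled log2 signal was -2.10, -2.11 and -2.11 on the hetero arrays and -5.73, -5.50 and -5.36 on the knockout arrays. The genotypes lay far apart, and on the knockout arrays the probe was at the edge of detection, well above background on 1 of the 3. The fitted difference was 10.8-fold (log2 fold change -3.43 ± 0.10 SE, limma adjusted p = 4.14e-06), with a 95% interval of 9.10 to 12.7-fold. Because Clec10a was detected on only 1 knockout array and passed the filter through hetero spheres, where it is high, this fold, interval and p describe a probe near its limit. With each knockout array counted at no less than its lowest detected signal, which raised 1 array, the fold was 10.6, a setting added after seeing the data.

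Mrc1 encodes the mannose receptor, which takes up glycoproteins ending in mannose, fucose or N-acetylglucosamine and fragments of collagen. Its scaled log2 signal was -0.77, -0.85 and -0.96 on the hetero arrays and -4.43, -3.98 and -4.07 on the knockout arrays. All 6 arrays were well above background, and the lowest hetero array was over 3 log2 units above the highest knockout array. Mrc1 was 9.82-fold lower (log2 fold change -3.30 ± 0.13 SE, limma adjusted p = 1.39e-05), with an interval of 7.83 to 12.3-fold. From the most negative log2 fold change among all genes tested, Clec10a ranked 10 and Mrc1 12, but with normexp they ranked 170 and 55 (offset of 50) or 27 and 14 (offset of 1).

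The sizes of both falls depended on how background was taken off. With normexp background correction and an offset of 50, Clec10a fell by 1.36 and Mrc1 by 1.91 log2 units. With an offset of 1, an alternative chosen after seeing the data, they fell by 2.56 and 2.89. Both genes passed in each case. The offset of 50 lies above the median processed signal of every array (31.1 to 38.1), so it shrinks the folds of dim probes by construction.

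**Figure D1:**
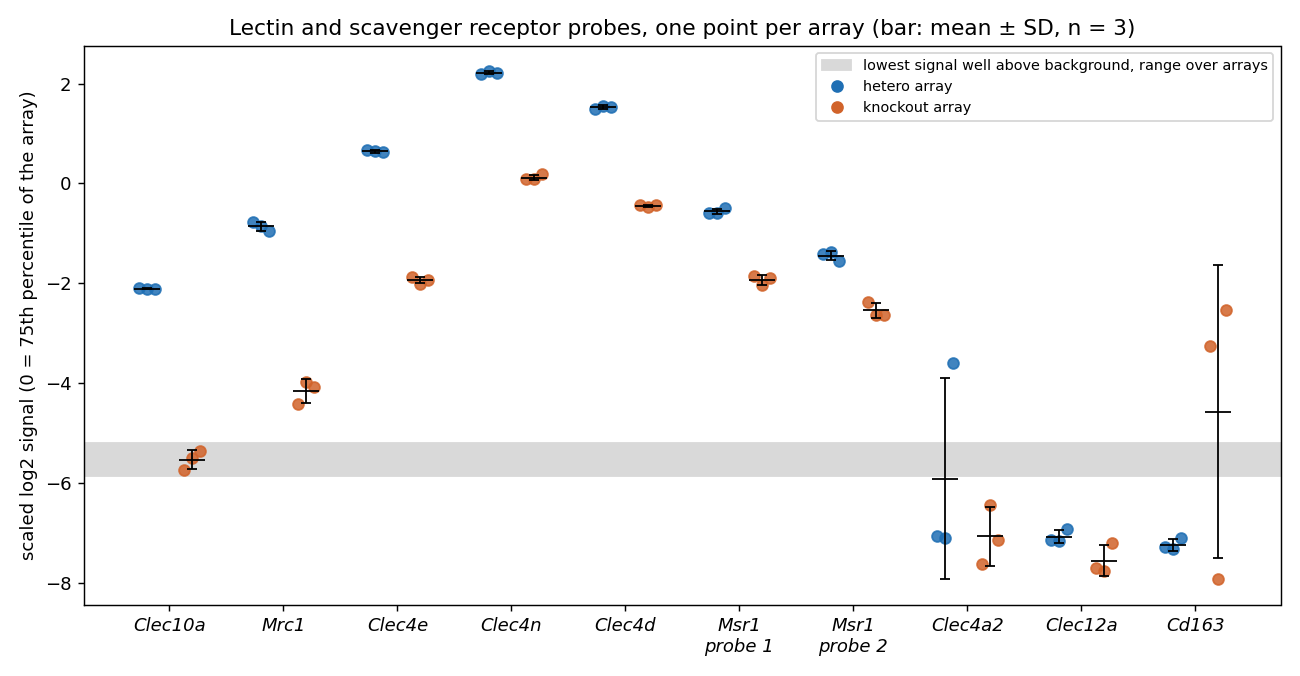
Scaled log2 signal of the 10 probes of the 9 receptors with a probe, one point per array, with the mean and SD of 3 arrays as bars and the range of the lowest signals well above background as a grey band. Hetero and knockout arrays separate for Clec10a, Mrc1, Clec4e, Clec4n, Clec4d and both Msr1 probes, while most points of Clec4a2, Clec12a and Cd163 lie below the band; heights of different probes are not comparable.

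Clec4e, Clec4n and Clec4d encode Mincle, Dectin-2 and MCL, receptors for glycolipids and mannans of microbes that signal through Fcer1g. Clec4e had a scaled log2 signal of 0.67, 0.64 and 0.62 on the hetero arrays and -1.88, -2.01 and -1.93 on the knockout arrays. It was 5.98-fold lower (log2 fold change -2.58 ± 0.04 SE, limma adjusted p = 6.05e-07). For Clec4n the values were 2.19, 2.24 and 2.21 in hetero and 0.10, 0.08 and 0.18 in knockout spheres. It was 4.28-fold lower (log2 fold change -2.10 ± 0.04 SE, limma adjusted p = 7.76e-07).

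Clec4d, which pairs with Clec4e at the cell surface, had a scaled log2 signal of 1.49, 1.56 and 1.54 on the hetero arrays and -0.44, -0.47 and -0.44 on the knockout arrays. It was 3.93-fold lower (log2 fold change -1.98 ± 0.03 SE, limma adjusted p = 4.45e-07). For all 3 genes the arrays of a genotype lay close together, and the genotypes did not overlap. These 3 genes remained well above background on every knockout array.

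Msr1 encodes the class A scavenger receptor, which takes up modified low-density lipoprotein and polyanions. The brighter of its 2 probes had a scaled log2 signal of -0.59, -0.59 and -0.50 on the hetero arrays and -1.86, -2.04 and -1.89 on the knockout arrays. It was 2.58-fold lower (log2 fold change -1.37 ± 0.06 SE, limma adjusted p = 1.86e-05), with an interval of 2.33 to 2.86-fold. The second probe, for the same transcript, read -1.42, -1.37 and -1.55 on the hetero arrays and -2.37, -2.63 and -2.62 on the knockout arrays. It was 2.14-fold lower (log2 fold change -1.10 ± 0.09 SE, limma adjusted p = 0.000513 over all 35427 kept probes, of which 27.6% were called lower). The 2 probes thus moved the same way and by a similar amount.

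In none of these 6 genes did an array of one genotype cross into the range of the other. Over all genes tested, every knockout array lay below every hetero array in 37.3% and above every one in 31.6%. The arrays filled 2 rows of the slide, each with both genotypes, and within the rows the log2 difference was -3.51 and -3.25 for Clec10a, -3.39 and -3.11 for Mrc1 and -1.36 and -1.39 for Msr1. A call together with a fall of at least 2-fold was made in 3.52% of all genes, and in each of these 6. Since the receptors were chosen with earlier results of these data known, this contrast is a description and not a test.

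Ordered by the size of the fall, the receptors ran Clec10a, Mrc1, Clec4e, Clec4n, Clec4d and Msr1. Neighbours in this order were compared within each array, as the difference between the 2 probes, over 5 pairs. The order came from these same fold changes, so the direction of every difference was fixed in advance. The sizes, overlaps and p below only describe the spread. Clec10a fell by 0.13 more than Mrc1, which was within the spread, since the arrays of the genotypes overlapped (exact permutation p = 0.3, two-sided, adjusted p = 0.3). Mrc1 fell by 0.72 more than Clec4e, Clec4e by 0.48 more than Clec4n, Clec4n by 0.12 more than Clec4d, and Clec4d by 0.61 more than Msr1. In these 4 pairs the genotypes did not overlap (exact permutation p = 0.1 each, adjusted p = 0.125). With 3 arrays against 3, a p of 0.1 is the smallest an exact test can give, so none of the 5 could pass. With normexp and an offset of 50, the order was Clec4e, Clec4n, Mrc1, Clec4d, Clec10a and Msr1, so the place of the 2 dimmest genes rests on the background correction.

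**Figure D2:**
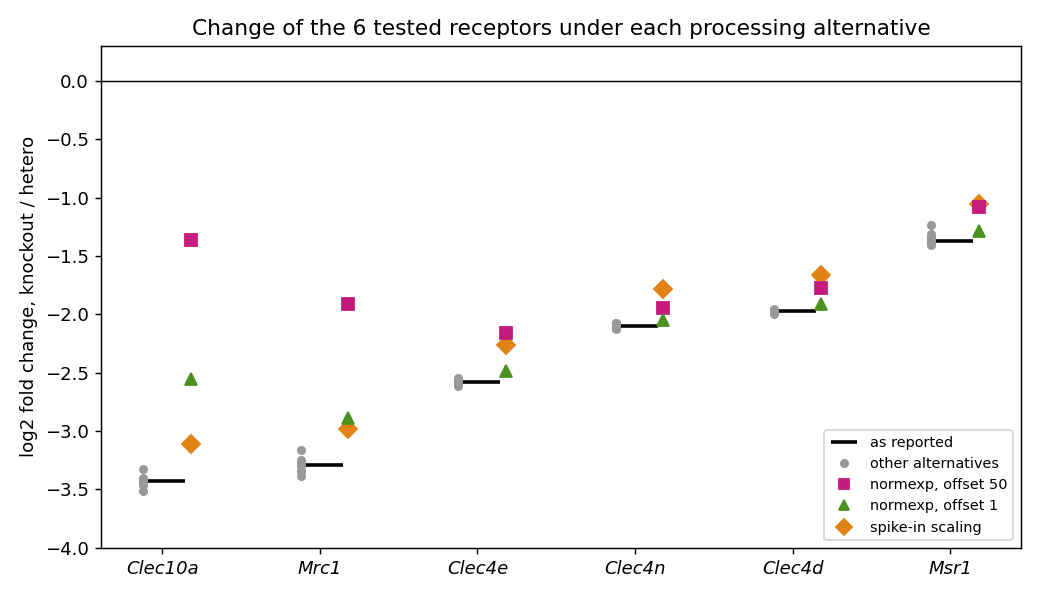
Log2 fold change, knockout over hetero, of the 6 tested receptors, as reported (black bars), with normexp background correction, with spike-in scaling and under the other alternatives (grey points). All points lie below 0, and the normexp values of Clec10a (-1.36) and Mrc1 (-1.91) lie farthest from the reported ones.

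The remaining 3 receptors with a probe gave no comparison. Clec12a, an inhibitory lectin that senses uric acid crystals, was not well above background on any of the 6 arrays, its processed signals ranging from 2.84 to 3.45 in hetero and from 2.24 to 3.26 in knockout spheres. Clec4a2, an inhibitory lectin of dendritic cells, gave processed signals of 3.09, 2.97 and 34.5 on the hetero arrays and 2.38, 5.64 and 3.40 on the knockout arrays. Detection on a single hetero array left the hetero mean under the detection floor, so no fold is given. Cd163, the receptor for haemoglobin bound to haptoglobin, gave 2.65, 2.53 and 3.02 on the hetero arrays and 48.6, 2.01 and 83.2 on the knockout arrays. Knockout replicates 1 and 3 were well above background and replicate 2 was at background, a spread of 2.92 log2 units (SD), so that the genotypes overlapped. With the filter lifted, none of the 3 passed (limma adjusted p = 0.0804 for Clec12a, 0.443 for Clec4a2 and 0.216 for Cd163). With each hetero array counted at no less than its lowest detected signal, the knockout mean of Cd163 was 1.95-fold above the hetero mean. That direction is opposite to the 6 tested receptors. It rests on those 2 arrays, since knockout replicate 2 lay below every hetero array.

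Close relatives of the listed receptors did not all behave alike. Mgl2, the paralog next to Clec10a, measured 4.52 ± 0.04 on the scaled log2 axis in hetero and 4.64 ± 0.07 in knockout spheres (SD, n = 3 each) and did not pass (log2 fold change 0.13, limma adjusted p = 0.0605). Mrc2, an endocytic collagen receptor related to Mrc1, rose by 0.25 ± 0.03 (SE, limma adjusted p = 0.00125). Marco, a class A scavenger receptor like Msr1, fell by 2.28 ± 0.05 (SE, limma adjusted p = 1.36e-06). Within arrays, the change of Clec10a differed from that of Mgl2 by -3.55 log2 units, that of Mrc1 from that of Mrc2 by -3.54, and that of Msr1 from that of Marco by 0.91. The genotypes did not overlap in any of the 3 pairs (exact permutation p = 0.1 each, the smallest possible, adjusted p = 0.1 over 3 pairs). For Clec10a this rests on knockout signals at the edge of detection. These pairs were picked for their relatedness after the values had been seen.

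Of 33 other C-type lectin genes listed, 22 were tested, and 10 were lower, 3 higher and 9 did not pass, with a median log2 fold change of -0.25 against -0.03 over all genes, of which 32.6% were lower and 27.8% higher. The 4 with the smallest p were Clec14a, Clec3b, Cd302 and Clec2d. Clec3b, the secreted plasminogen-binding protein tetranectin, fell by 2.93 ± 0.06 log2 units (SE) and Clec14a, a lectin of endothelium, by 1.65 ± 0.03. Cd302 and Clec2d fell by 0.82 ± 0.02 and 0.79 ± 0.02. Of 20 other scavenger receptor genes, 15 were tested, and 9 were lower, 2 higher and 4 did not pass (median -0.22). Beside Marco, the ferritin receptor Scara5 and the related Scara3 fell by 1.69 ± 0.02 and 0.998 ± 0.02, and Cd14, a co-receptor for bacterial lipopolysaccharide, rose by 0.60 ± 0.03. Scaling to spike-in spots raises every log2 fold change by 0.31 and widens the errors. It gave each gene listed here the same SE of 0.308. A call under it therefore depends only on the size of the fold and not on the spread of that gene. Under it 5 other lectins were lower and 1 higher (median 0.07), and 2 other scavenger receptors were lower and 1 higher (median 0.09), while the 6 receptors were all called lower. Over all genes it called 3.01% lower and 11.8% higher. Cd302, Clec2d and Scara3 did not pass under it. Mrc2 did not pass either, although its rise was larger there (0.56).

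**Figure D3:**
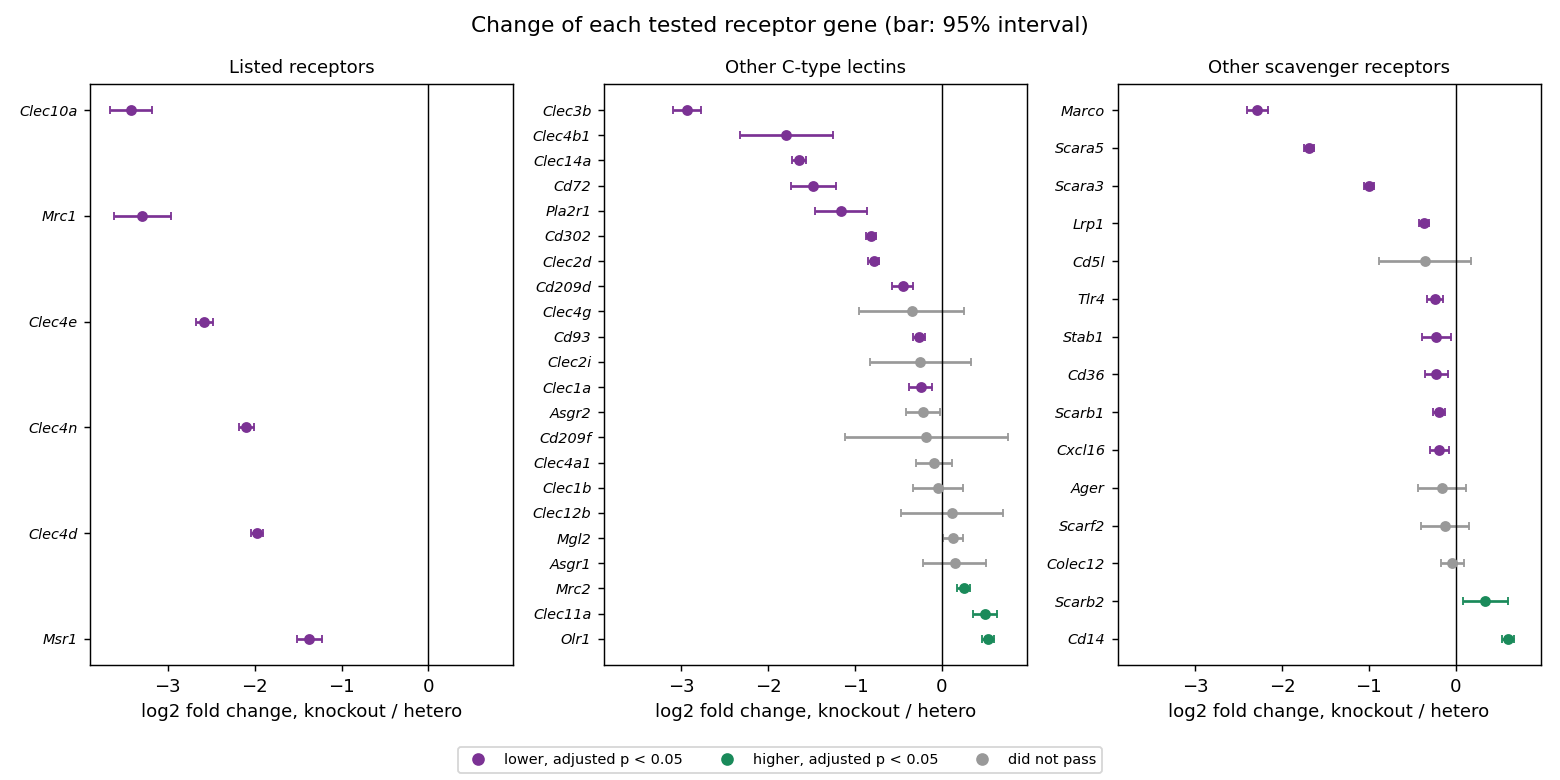
Log2 fold change, knockout over hetero, with its 95% interval, for the 6 tested receptors, the 22 other C-type lectins and the 15 other scavenger receptors tested, coloured by whether adjusted p was below 0.05. The 6 receptors lie between -3.43 and -1.37, whereas the other lists spread on both sides of 0.

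On chromosome 6, Clec4a2, Clec4b2, Clec4n, Clec4d and Clec4e follow one another in that order among the named genes of the gene table. Clec4b1, on the far side of Clec4a2, fell by 1.79 ± 0.21 (SE, limma adjusted p = 0.00102), and Clec4b2 was not detected on any array. Beyond Clec4e lie vomeronasal receptor genes, of which Vmn2r20 did not pass (log2 fold change 0.26 ± 0.47 SE, limma adjusted p = 0.67). Around Clec7a, also on chromosome 6, Clec1a fell by 0.24 ± 0.05 and Olr1, the receptor for oxidised low-density lipoprotein, rose by 0.53 ± 0.03. Clec1a did not pass with median centring or spike-in scaling (limma adjusted p = 0.0685 and 0.908). Around Clec12a, Clec12b and Clec1b did not pass (adjusted p = 0.689 and 0.774). Mgl2 and Asgr2 on one side of Clec10a on chromosome 11 did not pass, and Slc16a11 on the other side rose by 0.75 ± 0.05. Near Mrc1 on chromosome 2, Stam fell by 0.27 ± 0.03 and the calcium channel subunit gene Cacnb2 by 2.58 ± 0.10. The shift that spike-in scaling adds to every log2 fold change is larger than the fall of Stam. Near Msr1 on chromosome 8, Tusc3 and Sgcz did not pass and Micu3 rose by 0.30 ± 0.09. Members of the Clec4 cluster are similar in sequence, and how far their probes bind each other's transcripts was not tested.

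Several adaptors and kinases through which these receptors signal were lower, while other genes of the route were higher. Of 22 genes listed, 21 were tested, 9 of them lower, 9 higher and 3 not past the threshold (median 0.02). Over all genes 32.6% were lower and 27.8% higher. With median centring 8 of the 21 were lower and 6 higher. Fcer1g, the adaptor of Clec4e, Clec4n and Clec4d, measured 2.69 ± 0.06 in hetero and 0.37 ± 0.05 in knockout spheres (SD, n = 3 each), 4.998-fold lower (limma adjusted p = 8.87e-07). The sister adaptor Tyrobp fell by 1.90 ± 0.03 log2 units, the exchange factor Vav1 by 2.10 ± 0.10, the kinase Syk by 1.29 ± 0.06 and the lipid phosphatase gene Inpp5d by 1.19 ± 0.05. Card9 was detected on all 3 hetero arrays but on no knockout array. With each knockout array counted at no less than its lowest detected signal, Card9 was 2.06-fold lower. This fold rests on undetected knockout signals and is not a lower bound.

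Its partners Malt1 and Bcl10, expressed in many cell types, rose by 0.53 ± 0.05 and 0.10 ± 0.03, and the phospholipase Plcg2 rose by 1.75 ± 0.02. The NF-kB subunit gene Nfkb1 did not pass (log2 fold change 0.02, limma adjusted p = 0.639). Under spike-in scaling 5 of the 21 were lower, namely Fcer1g, Vav1, Tyrobp, Syk and Inpp5d, and 3 were higher, namely Plcg2, Malt1 and Nlrp3. Card9 and Bcl10 did not pass, although the rise of Bcl10 was larger there (0.41). Of 10 tested cytokine and chemokine genes that such signals can induce, 5 were lower and 4 higher, beside 32.6% and 27.8% of all genes. Ccl3 fell by 2.76 ± 0.04, Ccl2 by 0.41 ± 0.02 and Cxcl1 by 0.45 ± 0.03, and Tnf rose by 0.45 ± 0.04. With spike-in scaling Ccl2, Cxcl1 and Tnf did not pass, although the rise of Tnf was larger there (0.77).

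**Figure D4:**
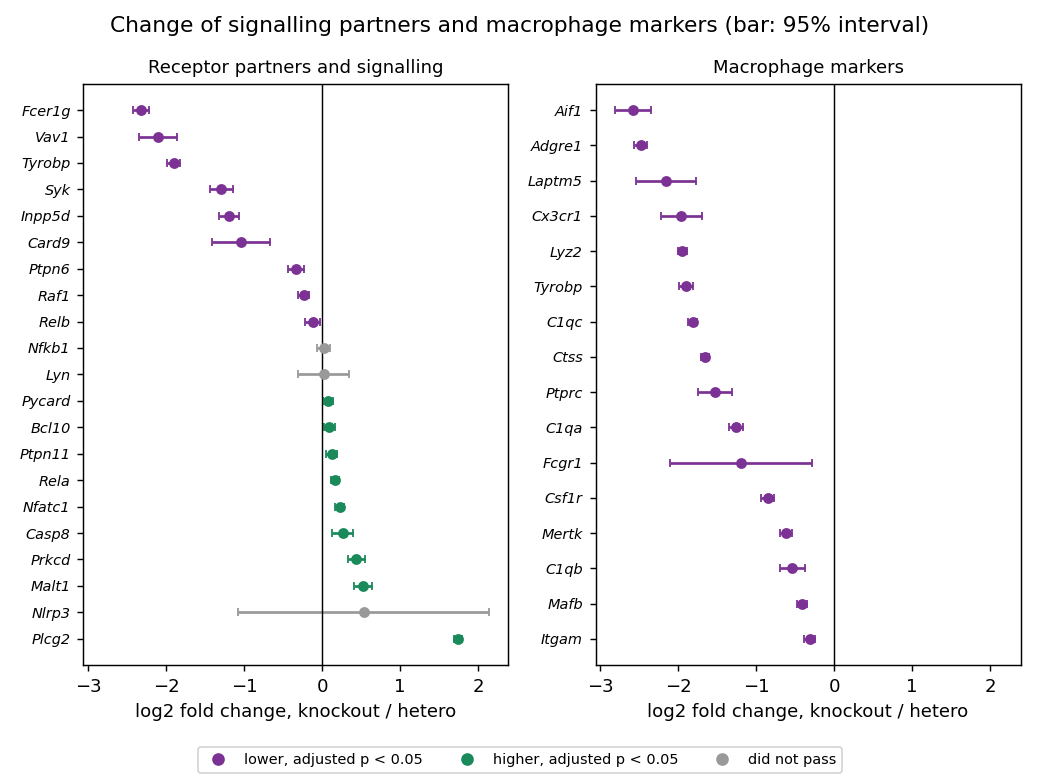
Log2 fold change, knockout over hetero, with its 95% interval, for the 21 tested receptor partners and signalling genes and for the 16 tested macrophage markers. Signalling genes range from Fcer1g at -2.32 to Plcg2 at 1.75, and all 16 macrophage markers lie below 0.

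Genes of the settings in which these receptors are usually discussed were counted beside the 32.6% of all genes called lower and 27.8% called higher. Of 16 alternative activation genes, 10 were tested, 3 of them higher and 3 lower (median -0.04), near those shares. Arg1, the arginase of alternatively activated mouse macrophages, rose by 1.96 ± 0.07 and the chemokine gene Ccl17 by 1.20 ± 0.07, while the interleukin receptor gene Il4ra fell by 0.41 ± 0.02 and the transglutaminase gene Tgm2 by 0.30 ± 0.03. With spike-in scaling Il4ra and Tgm2 did not pass. Retnla was not detected on any array. Of the 9 genes for haemoglobin and haem handling, the setting of Cd163, 4 were lower and 1 higher. The iron exporter gene Slc40a1 fell by 1.004 ± 0.04, Lrp1 by 0.37 ± 0.02 and the ferritin gene Fth1 by 0.41 ± 0.04, and Hp, the haptoglobin gene, rose by 2.73 ± 0.02. With spike-in scaling only Hp of these 9 passed.

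Macrophage markers were lower together with the receptors. Dendritic cell markers were lower in 3 and higher in 3 of 9, near the 32.6% and 27.8% of all genes. With spike-in scaling 1 dendritic cell marker was lower and 1 higher. All 16 tested macrophage markers of 18 listed were lower in knockout spheres (median -1.59), among them Adgre1 by 2.48 ± 0.03, Lyz2 by 1.95 ± 0.02, C1qc by 1.81 ± 0.02 and Ctss by 1.65 ± 0.02. With spike-in scaling 11 of the 16 passed, all lower. Their summed scaled signal, in units of the 75th percentile, ranged from 118.3 to 122.9 in hetero and from 83.6 to 85.3 in knockout spheres. Cx3cr1 and Fcgr1 were well above background on 2 of the 3 knockout arrays and the other tested markers on all of them; Spi1 did not pass the filter and no probe matched Cd68. Tyrobp stands in this list and in that of signalling genes. In whole spheres, fewer cells of a type and less RNA per cell cannot be told apart.

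Set against the median of the 16 macrophage markers on the same array, 5 of the 6 receptors were still lower in knockout spheres. This reference is a median of signal levels over different probes, so it depends on which probes lie mid-level. It stood at -0.71, -0.66 and -0.67 on the hetero arrays and -2.07, -1.96 and -2.06 on the knockout arrays. It thus fell less than the median marker change of -1.59, which makes the relative falls of the receptors larger. The difference was -2.08 log2 units for Clec10a, -1.95 for Mrc1, -1.23 for Clec4e, -0.75 for Clec4n and -0.63 for Clec4d. In these 5 genes the genotypes did not overlap (exact permutation p = 0.1 each, the smallest possible, adjusted p = 0.12 over 6 genes). Clec10a passed the filter through its hetero arrays and was detected on 1 knockout array. Its difference and separation therefore describe a probe near its limit. Msr1 stood at 0.12 ± 0.05 in hetero and 0.10 ± 0.16 in knockout spheres relative to the markers (SD, n = 3 each), a difference of -0.02 with overlapping arrays (exact permutation p = 1). No macrophage marker fell more than Clec10a or Mrc1, 1 fell more than Clec4e, 3 fell more than Clec4n, 3 more than Clec4d and 9 more than Msr1. With normexp and an offset of 50 these differences were -0.23 for Clec10a, -0.78 for Mrc1, -1.03 for Clec4e, -0.81 for Clec4n, -0.64 for Clec4d and 0.06 for Msr1. Over 19 settings the differences of Mrc1, Clec4e, Clec4n and Clec4d stayed below 0, as did that of Clec10a over the 18 in which it was tested, while that of Msr1 ran from -0.54 to 0.28.

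**Figure D5:**
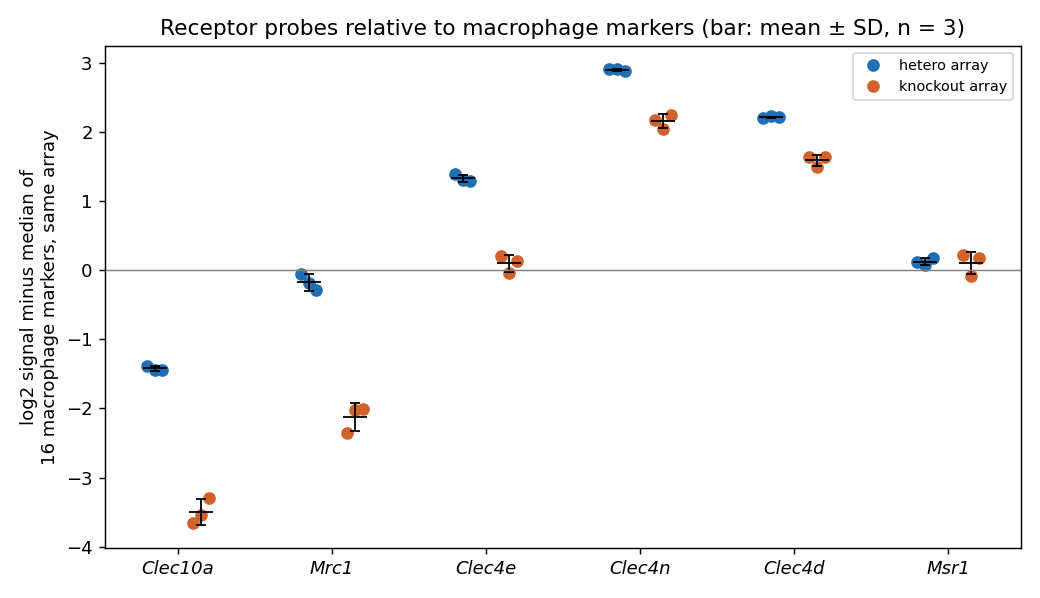
Log2 signal of the 6 tested receptors minus the median of 16 macrophage markers on the same array, one point per array, with mean and SD of 3 arrays. Knockout arrays lie below hetero arrays for 5 genes and overlap with them for Msr1; heights of different probes are not comparable.

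Marker lists of other cell types were counted in the same way, beside the 32.6% of all genes called lower and 27.8% called higher, and with so few genes a list several of these shares lie near those of all genes. Monocyte markers were lower in 4 of 5 tested genes and mast cell markers in 4 of 5, with 1 higher in each. Dendritic cell markers were lower in 3 and higher in 3 of 9, and neutrophil markers lower in 2 and higher in 4 of 8. T and NK cell markers were lower in 1 and higher in 1 of 5, B cell markers lower in 2 and higher in 1 of 5, and endothelial and lymphatic markers lower in 3 and higher in 2 of 7. Fibroblast markers were lower in 7 and higher in 2 of 10. All 12 mammary epithelial markers were higher, their summed scaled signal being 21.6 to 21.8 in hetero and 187.8 to 190.6 in knockout spheres. With spike-in scaling 2 of 5 monocyte, 2 of 5 mast cell and 3 of 10 fibroblast markers were lower, and all 12 epithelial markers were higher, beside 3.01% of all genes lower and 11.8% higher. The part of these shifts in the fall of the receptors was not tested.

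Outside the listed genes, 5 genes followed the median profile of the 6 receptors most closely over the 6 arrays, by root mean square distance of centred log2 values. They were Wdfy4, Rac2, Fcer1g, Myo1g and Wfdc17, at distances of 0.040 to 0.048, and fell by 2.32, 2.41, 2.32, 2.33 and 2.30 log2 units. With only 2 genotypes, this likeness mostly reflects the size of the difference between them.

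The arrays of the genotypes differed somewhat in signal and detection. Their 75th percentile of processed signal was 404 to 416 in hetero and 465 to 487 in knockout spheres. On the hetero arrays 60.4% to 61.3% of probes were well above background, and on knockout replicates 1, 2 and 3 69.6%, 66.7% and 60.5%. Arrays of a genotype correlated at 0.995 to 0.998 and arrays of different genotypes at 0.966 to 0.971 across genes, which are not independent replicates. Frs3, the targeted gene, was detected on 1 of 3 hetero and 0 of 3 knockout arrays, so it does not check the labels here.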

How the data were processed

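Cy3-labelled RNA was measured on 6 single-colour Agilent arrays on 1 slide; the submitters' processing notes name Agilent Feature Extraction 10.7.3.1. The deposited intensities are linear scanner values, background-subtracted per the file headers. The authors' deposited table is the same signal divided by 1 constant per array (402 to 484), with column medians of 0.161, 0.159 and 0.169 (hetero) and 0.163, 0.159 and 0.159 (knockout), linear and not centred by gene.

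Control and outlier-flagged spots (102 to 129 per array) were left out, and no spot was saturated. Probes were named by RefSeq accession (27235 of 55681 matched; table on GRCm38.p6, array header mm9). Log2 signals were scaled to each array's 75th percentile. Probes well above background on at least 3 arrays were kept (35427), and a gene took its brightest. Knockout was compared with hetero in limma 3.58.1 (lmFit, eBayes; R 4.3.3), with Benjamini-Hochberg adjustment over 15838 genes and a threshold of 0.05. The scripts were tested on simulated data. For a fold with arrays counted at no less than their lowest detected signal, each array of the dimmer genotype took its own value or that signal, whichever was higher. That signal is the lowest over all detected probes of the array, and "detected" means well above background.

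The receptors and lists were chosen with earlier results of these data known, and 1 gene of the signalling list is not reported here. Named genes were the receptors, Frs3, up to 4 genes with the smallest p per list, table neighbours and the 5 most alike genes. Further signalling genes, Mgl2, Mrc2 and markers named for detection or scaling were added after values were seen. Of other cell types only counts are given, with a summed signal for the mammary epithelial markers. Normexp took the median spot signal, the mean signal not being used here. With 3 arrays per genotype, their number limits precision.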

Additional observations from a re-analysis of the deposited data

How the results depend on the processing

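The 6 receptors were called lower under every alternative in which they were tested, with no change of direction or call; with probes required above background on all 6 arrays Clec10a was not tested and 5 were called. Fold changes ran from -3.51 to -1.36 for Clec10a, -3.39 to -1.91 for Mrc1, -2.61 to -2.16 for Clec4e, -2.13 to -1.78 for Clec4n, -1.99 to -1.66 for Clec4d and -1.40 to -1.06 for Msr1 (log2), with adjusted p of at most 0.00559. Leaving out single arrays gave 8564 to 8952 calls over all genes, against 9563, and 6 receptors lower each time. Spike-in scaling gave 2346 calls, 1869 higher and 477 lower, and moved the median of all genes from -0.03 to 0.28. It widens the median SE from 0.041 to 0.308, which is also the SE of each of the 6 receptors under it. It and the quantile scaling moved the lower share of calls, 54.0%, to 20.3% and 46.9%. Of list counts and medians, 753 were within 1.5 times or the spread between arrays and 111 moved. Replicate numbers did not pair the arrays (correlations of deviations -0.12, -0.02 and -0.01), and with the replicate block 8511 genes and the 6 receptors were called. With the slide row as a block 9340 genes were called. The differences relative to macrophage markers, and normexp with an offset of 1, were added after seeing the data; 20 such differences moved by more than the spread between arrays and 87 by less. Dim probes limit the folds of Clec10a and Mrc1 and leave Clec4a2, Clec12a and Cd163 without a comparison.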
